A study of Arabidopsis thaliana with 6 samples.

Results

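Complex II, or succinate dehydrogenase, is the enzyme of the inner mitochondrial membrane that oxidises succinate to fumarate in the tricarboxylic acid cycle and passes the electrons to ubiquinone. The 10 Arabidopsis thaliana genes described here were chosen by locus identifier from the annotation of the complex: SDH1-1 (AT5G66760) and SDH1-2 (AT2G18450) for the flavoprotein, SDH2-1 (AT3G27380), SDH2-2 (AT5G40650) and SDH2-3 (AT5G65165) for the iron-sulfur subunit, SDH3-1 (AT5G09600), SDH3-2 (AT4G32210) and SDH4 (AT2G46505) for the membrane anchor, and SDH5 (AT1G47420) and SDH6 (AT1G08480) for subunits described in plants. All 10 were found among the 33602 loci of the expression table, and 8 of them reached the level needed for testing, as did 20047 loci in all.

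RNA came from whole seedlings 14 days after germination, raised at 22 °C on a sucrose medium (1%) in long days, with light for 16 h and darkness for 8 h. The 3 control libraries were Col-0 wild type. The other 3 libraries were cfm6-1, labelled CFM6-/- in the Col-0 background, so that both groups shared the ecotype and the growth conditions and cfm6-1 is represented by a single mutant line whose lesion the labels do not describe. CFM6 is a CRM domain protein, one of the plant RNA-binding proteins that act in group II intron splicing, and the series title links it to intron 4 of the mitochondrial transcript nad5, which encodes a subunit of complex I. The comparison asks how transcripts of the nuclear genes for complex II differ between the genotypes.

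Electrons enter the ubiquinone pool of plant mitochondria through complex I, through alternative NAD(P)H dehydrogenases and through complex II. SDH1 carries the flavin that oxidises succinate, SDH2 carries the iron-sulfur clusters that move the electrons on, and SDH3 and SDH4 hold the enzyme in the membrane near the ubiquinone site. In Arabidopsis these subunits are made from nuclear genes, several of them from more than 1 copy, and SDH2-3 is known from seeds.

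The levels are RPKM, reads per kilobase of gene model per 1000000 reads, so a level depends on the gene model length the authors used. That length was close to the longest TAIR10.1 transcript for SDH2-1 (2.526 and 2.546 kb) and well below it for SDH2-2 (1.132 and 1.989 kb) and SDH4 (0.821 and 1.291 kb). Levels set between genes therefore hold for the deposited lengths, while the change of a gene between genotypes does not depend on its length except through the added 1 RPKM. Values rebuilt into reads summed to between 44.0 and 49.2 M per library, where M stands for 1000000 reads. CFM6 (AT4G13070) averaged 3.88 ± 0.207 RPKM over the wild type libraries and 1.29 ± 0.052 over those of cfm6-1 (mean ± SD, n = 3; limma adjusted p = 1.2e-05), the direction the labels give. Changes were tested with limma on log2(RPKM + 1) over all 20047 loci, and a gene is said to have risen or fallen only where its Benjamini-Hochberg adjusted p was below 0.05. At that threshold 68.8% of all tested loci differed between the genotypes, 38.6% being higher and 30.2% lower in cfm6-1, so a call by itself says little about a gene. The labels call the libraries biological replicates without saying how the plants were grown apart, and the p-values measure the spread between these libraries. In whole seedlings, fewer cells of a type and less RNA per cell cannot be told apart.

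How far the copies of a subunit can be told apart depends on their sequence, so stretches of coding sequence that bear on this are shown from the reference genome (RefSeq, TAIR10.1). SDH3-1 (chr5:2978825-2981096, plus strand) and SDH3-2 (chr4:15556397-15558167, minus strand) have coding sequences of 642 bases that match at 641 positions. The only substitution between them is C33T, counted from 1 at the start codon, with the base of SDH3-1 first. The first 90 coding bases hold it, in capitals.
SDH3-1: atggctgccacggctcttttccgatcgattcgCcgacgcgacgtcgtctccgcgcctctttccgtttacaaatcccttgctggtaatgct
SDH3-2: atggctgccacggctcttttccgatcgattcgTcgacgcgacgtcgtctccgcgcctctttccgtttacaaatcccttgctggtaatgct
The sharing goes beyond the coding part. Of the 100-base windows in the longest annotated transcript, 83.6% of those of SDH3-1 and 88.7% of those of SDH3-2 recur in a transcript of another locus, where 100 bases is the length of a read. For SDH3-2 that locus is SDH3-1 alone. The figure for SDH3-1 also takes in windows of its neighbour AT5G09610, which overlaps it by 232 bases on the same strand. AT5G09610 was at most 0.01 RPKM in any library. The authors' deposited column for the highest ratio of multiply mapped reads gives 0.912 for SDH3-1 and 0.926 for SDH3-2. Values for either SDH3 copy are therefore uncertain, and the sum of both is the firmer quantity.

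Reads of SDH2-1 and SDH2-2, by contrast, can be separated from each other. SDH2-1 (chr3:10129610-10132882, minus strand) and SDH2-2 (chr5:16281394-16283527, plus strand) were identical at 86.3% of aligned coding positions, and their longest identical run was 49 bases, shorter than a read. The gap-free stretch of 90 coding bases with the most differences, 23 of them, runs from base 34 to base 123 in both genes and is printed with the differing bases in capitals.
SDH2-1: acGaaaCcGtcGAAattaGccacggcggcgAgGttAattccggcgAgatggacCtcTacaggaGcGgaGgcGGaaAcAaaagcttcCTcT
SDH2-2: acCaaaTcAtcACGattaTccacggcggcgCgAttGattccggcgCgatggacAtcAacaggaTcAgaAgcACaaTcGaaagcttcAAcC
SDH2-3 (chr5:26034422-26036057, minus strand) is far from both, with 56.1% identity to SDH2-1 and 55.3% to SDH2-2. The SDH1 copies matched at 79.9% of positions with a longest identical run of 35 bases, and no 100-base window of either recurred elsewhere. Their loci are chr5:26653607-26657696 (plus strand) for SDH1-1 and chr2:7997344-8000825 (minus strand) for SDH1-2. SDH4 lies at chr2:19089486-19090776 (minus strand), SDH5 at chr1:17395518-17397263 (minus strand) and SDH6 at chr1:2684176-2685702 (plus strand). All positions are those of TAIR10.1.

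Complex II transcripts were higher in cfm6-1 for 7 of the 8 tested genes and lower for none, beside 38.6% higher and 30.2% lower among all tested loci. The 7 genes are SDH1-1, SDH2-1, SDH3-1, SDH3-2, SDH4, SDH5 and SDH6, and their folds ran from 1.32 in SDH3-2 to 1.81 in SDH1-1. Most reads of SDH3-1 and SDH3-2 map to both, so the calls of these copies are not independent of each other. SDH2-2 did not pass the test. The median log2 change of the 8 was 0.47, against 0.05 over all tested loci. The same 7 genes had every cfm6-1 library above every wild type library, which held for 41.5% of all tested loci. SDH1-2 and SDH2-3 did not reach 1 RPKM in at least 3 libraries and were not tested.

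**Figure D1:**
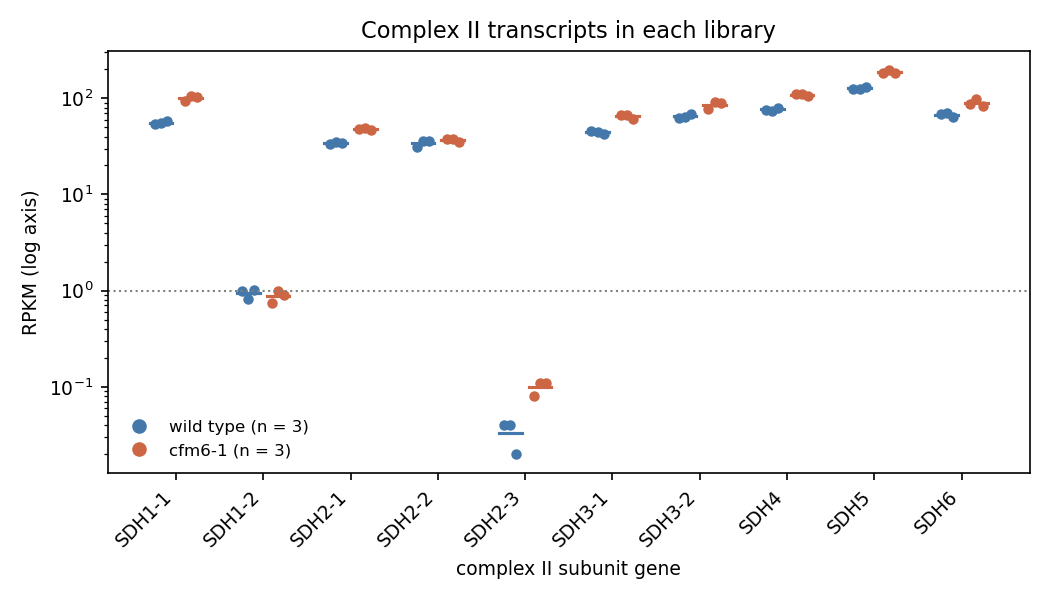
RPKM of the 10 complex II genes on a log axis, with 1 point per library and a bar at the mean of each genotype; the dotted line marks 1 RPKM. The 8 tested genes lie between 31.32 and 197.04 RPKM, SDH1-2 lies near 1 RPKM and SDH2-3 near 0.1 RPKM or below, and the genotypes overlap for SDH1-2 and SDH2-2.

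SDH1-1, the flavoprotein gene that supplies nearly all SDH1 transcript, had the largest change of the tested members. Wild type replicates 1 to 3 measured 54.03, 55.03 and 57.41 RPKM, and cfm6-1 replicates 1 to 3 measured 94.20, 105.32 and 102.08, the order kept for every gene here. The 3 cfm6-1 libraries lay far above the 3 wild type libraries, with no overlap. The gene rose 1.81-fold, by 0.85 on the log2(RPKM + 1) scale (SE 0.06, limma adjusted p = 1.77e-05), with a 95% confidence interval of 0.72 to 0.97. No multiply mapped reads were recorded for it.

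SDH1-2, the second flavoprotein gene, was a minor transcript in both genotypes. Its wild type libraries measured 1.00, 0.81 and 1.01 RPKM, and the cfm6-1 libraries 0.74, 0.98 and 0.89, values that overlap and stand for 286 and 270 reads over the 3 libraries of each genotype. Without the filter on low values its fitted log2 change was -0.05 (limma adjusted p = 0.543). Its share of the summed SDH1 level was 1.67 ± 0.191% in wild type and 0.855 ± 0.0717% in cfm6-1 (n = 3), lower in each cfm6-1 library than in any wild type library. A two-sided exact permutation test of this share gave p = 0.1, the smallest value that 3 libraries against 3 allow. Because SDH1-1 was already called higher and SDH1-2 overlapped, the share mostly restates the rise of SDH1-1 and is no separate support.

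Of the iron-sulfur subunit genes, SDH2-1 rose and SDH2-2 did not pass the test. The SDH2-1 wild type libraries measured 33.83, 35.08 and 34.41 RPKM, and the cfm6-1 libraries 47.46, 48.65 and 46.51, with no overlap. It rose 1.38-fold, by 0.45 on the log2(RPKM + 1) scale (SE 0.04, limma adjusted p = 6.75e-05). The SDH2-2 wild type libraries measured 31.32, 35.72 and 36.21 RPKM, and the cfm6-1 libraries 37.36, 37.65 and 35.02. Its genotypes overlapped, because cfm6-1 replicate 3 was below wild type replicates 2 and 3. The fitted change of SDH2-2 was 0.09 (SE 0.07, limma adjusted p = 0.248), and the 95% confidence interval of -0.06 to 0.25 lies below that of SDH2-1, 0.36 to 0.55.

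The difference between these copies was tested through their shares. SDH2-2 made up 48.07, 50.45 and 51.27% of the SDH2-1 and SDH2-2 sum in wild type, and 44.05, 43.63 and 42.95% in cfm6-1. These shares rest on the deposited lengths, and behind the wild type values stood 13113 reads of SDH2-1 and 5875 of SDH2-2. With the lengths of the longest TAIR10.1 transcripts, an alternative chosen after seeing the data, the mean share was 36.4% in wild type and 30.7% in cfm6-1. With the deposited lengths, every cfm6-1 library lay below every wild type library, and the difference of means was -6.39 percentage points (two-sided exact permutation p = 0.1, the smallest possible here, n = 3). This share is not independent of the call already made for SDH2-1. In the reference both genes overlap a neighbour. AT3G27360 (itself uncertain, with a multiply mapped share of 0.27), annotated as a histone, shares 328 bases with SDH2-1 on the same strand and averaged 10.5 ± 0.580 RPKM for wild type and 12.9 ± 0.767 for cfm6-1. AT5G40660, annotated as an ATP12-like protein, overlaps SDH2-2 by 382 bases on the opposite strand and averaged 20.4 ± 0.890 and 31.0 ± 1.07 RPKM. Both neighbours were called higher (limma adjusted p = 0.00537 for AT3G27360 and 5.74e-05 for AT5G40660). Of the 100-base windows of SDH2-1, 9.4% recur in AT3G27360, and of those of SDH2-2, 15.0% recur in AT5G40660. Reads in the overlap of SDH2-1 and AT3G27360 cannot be told apart by strand. Whether the authors' counting used strand is not given, so reads in the overlap of SDH2-2 and AT5G40660 cannot be told apart either. The windows are those of the longest transcripts. For SDH2-2 the deposited length is shorter, 1.132 kb against 1.989 kb, so whether the counted model held that overlap is not known. The part of the neighbours in the SDH2-1 and SDH2-2 values was not tested. The multiply mapped share reached 0.109 for SDH2-1, whose values are to that extent uncertain, and 0.008 for SDH2-2.

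SDH2-3, the copy known from seeds, was near the limit of detection. Its wild type libraries measured 0.04, 0.04 and 0.02 RPKM, and the cfm6-1 libraries 0.08, 0.11 and 0.11. These values stand for 5 reads over the wild type libraries and 16 over the cfm6-1 libraries, 1 or 2 reads in each of the former and 4 to 6 in each of the latter. The cfm6-1 libraries were all higher, on counts this low. Without the filter on low values the fit gave SDH2-3 a log2(RPKM + 1) change of 0.09 (limma adjusted p = 0.00857), and in the authors' deposited table its adjusted p-value was 0.0302. The 10 seed and embryo markers checked here, among them the storage albumin, cruciferin and oleosin genes, were all below 1 RPKM in every library. Their summed level was 0.18, 0.10 and 0.18 RPKM in wild type and 2.56, 0.82 and 0.74 in cfm6-1. The highest sum was that of cfm6-1 replicate 1. Of the 10 markers, 2 had every cfm6-1 library above every wild type library, the storage albumin genes At2S1 and At2S2, and 0 had every one below. At2S1 and At2S2 were at most 0.63 RPKM in any library. Among all tested loci, 41.5% had every cfm6-1 library above every wild type library. The part of these markers in the SDH2-3 value was not tested. The storage albumin gene AT4G27160 was listed at 0 in every library.

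The list of regulators that act on the SDH2-3 promoter in seeds held 6 genes, of which 3 were tested. ABI3, FUS3 and LEC2, transcription factors of seed maturation, were at most 0.19 RPKM in any library and were not tested. FUS3 was lower in every cfm6-1 library, at 0.12, 0.19 and 0.16 RPKM in wild type against 0.09, 0.04 and 0.11. Without the filter on low values it was called lower (limma adjusted p = 0.0491), just under the threshold and on levels near the limit of detection. Of the 3 tested bZIP genes, 0 were higher and 1 was lower by limma, beside 38.6% higher and 30.2% lower among all tested loci. bZIP25 fell from 73.0 ± 5.03 to 49.2 ± 0.716 RPKM (n = 3, limma adjusted p = 0.000126). bZIP10 was at 27.8 ± 0.272 and 28.0 ± 0.631 RPKM. bZIP53, whose reads were multiply mapped with a share of up to 1, averaged 49.9 and 45.3 RPKM with overlapping libraries, and without cfm6-1 replicate 3 it was called lower (limma adjusted p = 0.0181).

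The membrane anchor genes rose together. The summed level of SDH3-1 and SDH3-2 came to 108.07, 108.71 and 111.57 RPKM for wild type, and to 143.56, 158.56 and 149.28 for cfm6-1, a ratio of means of 1.38. The libraries of the genotypes did not overlap. For SDH3-1 the wild type libraries held 46.10, 44.68 and 43.00 RPKM against 67.05, 67.01 and 60.76 in cfm6-1. For SDH3-2 they held 61.97, 64.03 and 68.57 RPKM against 76.51, 91.55 and 88.52. In both genes every cfm6-1 library was above every wild type library. Taken singly, SDH3-1 rose 1.46-fold (limma adjusted p = 0.000127) and SDH3-2 1.32-fold (limma adjusted p = 0.00289), with the reservation that most of their reads map to both. The share of SDH3-2 in the sum was 59.2 ± 2.08% in wild type and 56.8 ± 3.11% in cfm6-1 and overlapped between genotypes (two-sided exact permutation p = 0.5, n = 3). The difference of -2.46 percentage points was -0.716 without cfm6-1 replicate 1 and -1.34 without wild type replicate 3. SDH4, the other anchor subunit, had no multiply mapped reads. Its wild type libraries measured 75.96, 73.93 and 79.83 RPKM, and the cfm6-1 libraries 109.50, 109.54 and 104.75, with no overlap. SDH4 rose 1.41-fold (log2 change 0.49, SE 0.05, limma adjusted p = 9.31e-05).

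SDH5 and SDH6, accessory subunits found in plant complex II, rose as well. SDH5 had the highest level of all members. Its wild type libraries measured 123.81, 126.33 and 129.99 RPKM, and the cfm6-1 libraries 183.01, 197.04 and 183.46. The genotypes did not overlap, and the gene rose 1.48-fold (log2 change 0.56, SE 0.05, limma adjusted p = 6.3e-05); multiply mapped reads reached a share of 0.126, so its level is somewhat uncertain. The SDH6 wild type libraries measured 68.10, 70.68 and 63.33 RPKM, and the cfm6-1 libraries 86.68, 97.69 and 82.52. It rose 1.32-fold (log2 change 0.39, SE 0.07, limma adjusted p = 0.00233), with cfm6-1 replicate 2 the highest library and no overlap. Both genes overlap a neighbour on the opposite strand, SDH5 with AT1G47410 by 156 bases and SDH6 with AT1G08490 by 44 bases; both neighbours fell, AT1G47410 (uncertain, with a multiply mapped share of 0.149) from a mean of 7.53 to 5.44 RPKM and AT1G08490 from 25.5 to 22.2. Their part in the SDH5 and SDH6 values was not tested.

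The authors' deposited table, whose direction is that of coded libraries, lists log2 fold changes from 0.35 to 0.81 for the same 7 genes. In the authors' deposited table the adjusted p-value of SDH3-2 was 0.095 and that of SDH6 was 0.0703, while SDH1-1 stood at 0.0211 and SDH2-2 at 0.621.

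**Figure D2:**
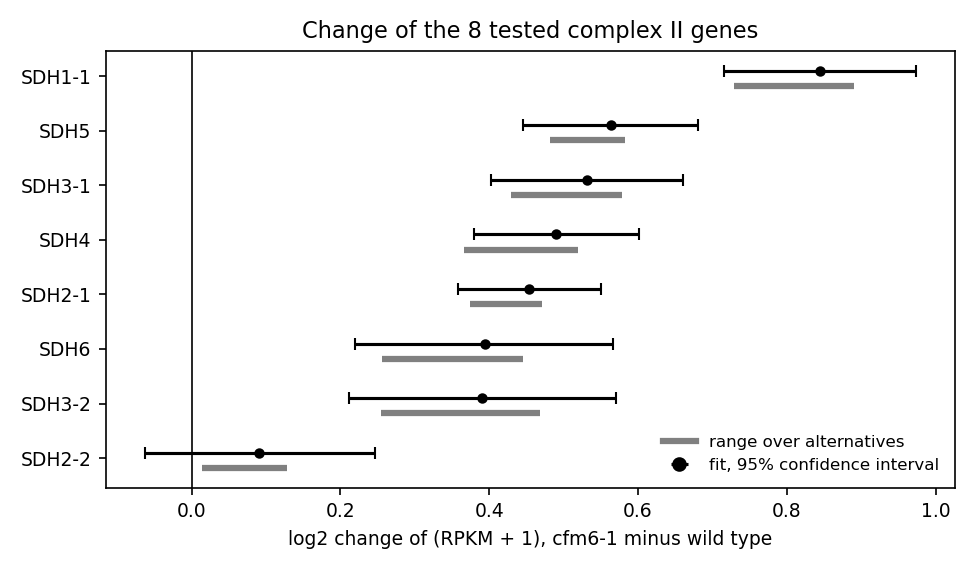
Log2 change of (RPKM + 1), cfm6-1 minus wild type, of the 8 tested complex II genes (points, with 95% confidence intervals from limma) and the range of the same change over 13 alternative fits (grey bars). SDH1-1 lies highest at 0.85 and SDH2-2 lowest at 0.09, the only gene whose interval includes 0.

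The order of the members by level shifted at SDH1-1. In wild type the order was SDH5, SDH4, SDH6, SDH3-2, SDH1-1, SDH3-1, SDH2-1, SDH2-2, SDH1-2 and SDH2-3. The libraries of SDH6 and SDH3-2 overlapped, as did those of SDH2-1 and SDH2-2, and the other neighbours in the order did not. In cfm6-1 SDH1-1 stood at rank 3 in place of rank 5, and the libraries of SDH4, SDH1-1, SDH6 and SDH3-2 overlapped from each to the next. SDH2-1 and SDH2-2 did not overlap there. With the lengths of the longest TAIR10.1 transcripts SDH4 moved from rank 2 to rank 5 in both genotypes, SDH1-1 stood at rank 4 in wild type and rank 2 in cfm6-1, and SDH2-2 averaged 19.6 RPKM in wild type beside 34.2 for SDH2-1.

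Summed by subunit, the ratio of the genotype means was larger for SDH1 than for SDH2. The SDH1 sum was 56.4 ± 1.77 RPKM in wild type and 101 ± 5.84 in cfm6-1, a ratio of 1.80, while the SDH2 sum was 68.9 ± 3.21 and 84.3 ± 2.44, a ratio of 1.22 (n = 3). The SDH1 sum divided by the SDH2 sum was 0.844, 0.788 and 0.827 in wild type and 1.118, 1.230 and 1.261 in cfm6-1. Every cfm6-1 library was above every wild type library. With the longest TAIR10.1 transcripts as lengths the mean ratio was 0.964 in wild type and 1.37 in cfm6-1, so its size depends on the length used. Divided by the level of SDH4, the SDH1 sum was 0.737 ± 0.0161 in wild type and 0.940 ± 0.0636 in cfm6-1. These ratios are of transcript levels over members already known to differ, and are given without a test.

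**Figure D3:**
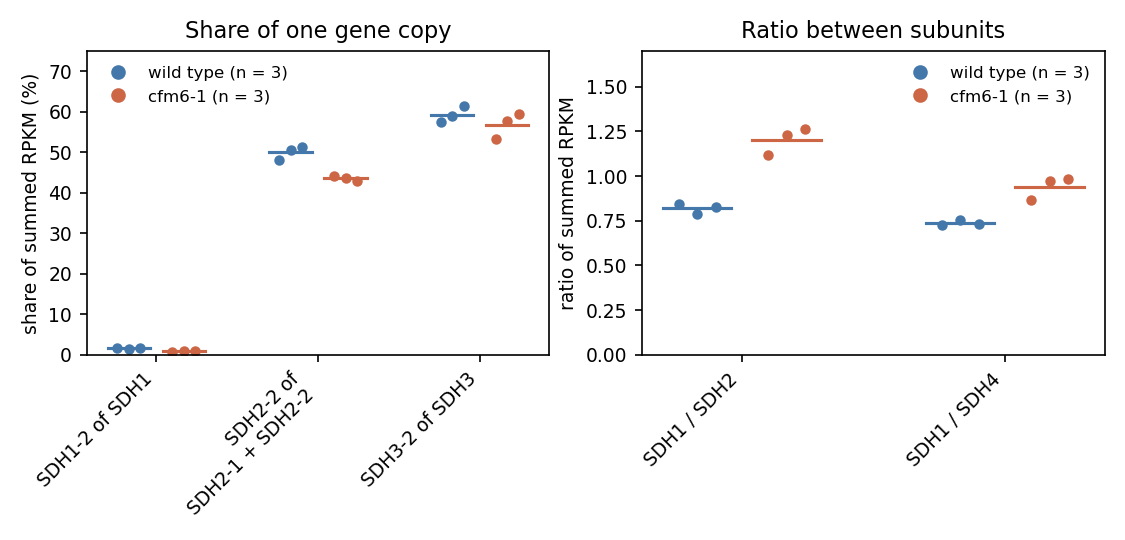
Left, share of summed RPKM, in percent, held by SDH1-2, SDH2-2 and SDH3-2 among the copies of their subunit; right, summed SDH1 level divided by the SDH2 sum and by SDH4. Points are libraries and bars are means (n = 3 per genotype); the SDH2-2 share lies at 48.07 to 51.27% in wild type and 42.95 to 44.05% in cfm6-1, and the SDH1 to SDH2 ratio at 0.788 to 0.844 and 1.118 to 1.261.

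The bases before the annotated gene start were searched for motifs in all 10 members, since 7 of them rose. The G-box, CACGTG, was found in the 250 bases before SDH2-1, SDH2-2 and SDH2-3, and in none of the other members, and 6.49% of 27443 protein-coding genes of the nuclear genome hold it in a window of that length. Site II elements, TGGGCC or TGGGCT, were found before SDH1-2 and SDH2-3, against 19.2% of all genes. The telo-box AAACCCTA (4.49% of genes), the RY element CATGCA (8.43%) and the mitochondrial dysfunction motif CTTGNNNNNCANG (1.75%) were found before no member. Both strands were searched, and no matches overlapped. The upstream windows of the 3 SDH2 genes are from TAIR10.1 and run 5′ to 3′ on the gene's strand. Capitals mark G-boxes and, in SDH2-3, also 2 site II elements. The windows are chr3:10132883-10133132, minus strand, chr5:16281144-16281393, plus strand, and chr5:26036058-26036307, minus strand.
SDH2-1: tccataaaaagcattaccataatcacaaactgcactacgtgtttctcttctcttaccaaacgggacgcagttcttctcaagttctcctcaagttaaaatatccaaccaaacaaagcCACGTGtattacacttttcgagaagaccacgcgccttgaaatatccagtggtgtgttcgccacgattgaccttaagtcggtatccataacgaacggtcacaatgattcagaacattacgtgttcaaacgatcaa
SDH2-2: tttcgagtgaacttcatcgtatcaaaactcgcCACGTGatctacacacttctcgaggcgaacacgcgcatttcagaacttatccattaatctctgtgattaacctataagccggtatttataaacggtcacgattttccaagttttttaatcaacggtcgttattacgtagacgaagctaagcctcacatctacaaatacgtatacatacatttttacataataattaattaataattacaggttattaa
SDH2-3: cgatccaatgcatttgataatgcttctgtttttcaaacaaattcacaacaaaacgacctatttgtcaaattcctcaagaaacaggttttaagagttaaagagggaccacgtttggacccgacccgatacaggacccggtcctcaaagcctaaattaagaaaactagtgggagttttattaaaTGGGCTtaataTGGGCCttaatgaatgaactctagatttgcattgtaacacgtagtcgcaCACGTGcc
The G-box begins 134 bases before the gene start in SDH2-1, 218 bases before it in SDH2-2 and 8 bases before it in SDH2-3. A match of letters is a description of the sequence, not of a binding site.

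Genes for the other known parts of complex II were also higher. All 5 tested genes for further subunits and assembly factors rose, beside 38.6% of all loci, with a median log2 change of 0.53. SDH8, a small plant subunit, rose from 134 ± 1.17 to 193 ± 6.97 RPKM (limma adjusted p = 6.22e-05), and the 2 SDH7 genes, SDH7A and SDH7B, rose 1.46-fold and 1.51-fold. SDHAF2, the factor that helps insert the flavin into SDH1, rose 1.47-fold, from 40.6 ± 1.93 to 59.6 ± 2.26 RPKM (limma adjusted p = 9.13e-05). The call for the assembly factor SDHAF4 (limma adjusted p = 0.042, 60.9 ± 4.60 and 71.3 ± 6.60 RPKM) was the least firm. Its libraries overlapped and its multiply mapped share reached 0.967. The call was lost when wild type replicate 1, wild type replicate 2, cfm6-1 replicate 2 or cfm6-1 replicate 3 was left out (limma adjusted p = 0.067 to 0.126), without the filter (0.0613) and under median-of-ratios (0.0908) or quantile scaling (0.272).

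Of the genes of other enzymes and carriers around succinate, most were higher. Of the 12 genes of succinate supply and use, 9 rose and 3 fell, beside 38.6% higher and 30.2% lower among all tested loci. The median log2 change of the 12 was 0.62, with a range from -1.11 to 4.09. ICL, the isocitrate lyase of the glyoxylate cycle, which releases succinate, measured 0.53, 0.55 and 0.77 RPKM in the wild type libraries, and 18.97, 26.28 and 37.41 in the cfm6-1 libraries. Its mean went from 0.617 to 27.6 RPKM (limma adjusted p = 8.29e-06). In RPKM, its cfm6-1 libraries differed among themselves by more than those of any tested complex II member. The dicarboxylate carriers DIC1 and DIC2, which exchange organic acids across the inner membrane, rose 5.90-fold and 16.3-fold. Their cfm6-1 libraries spread more widely still, at 111.10, 101.31 and 159.81 RPKM for DIC1 and 89.00, 110.63 and 188.17 for DIC2. Replicate 3 was the highest for each. DIC3 went from 0.133 ± 0.0231 to 1.56 ± 0.183 RPKM. ICL and DIC3 were below 1 RPKM in every wild type library and entered the test only through their cfm6-1 libraries. Without the filter on low values they were called higher too (limma adjusted p = 5.98e-05 for ICL and 4.32e-05 for DIC3).

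The genes for enzymes on either side of succinate dehydrogenase were called in both directions. The succinyl-CoA ligase genes, which make succinate in the cycle, rose 1.31-fold (AT5G08300, alpha), 1.77-fold (AT5G23250, alpha) and 1.31-fold (AT2G20420, beta). FUM1, the mitochondrial fumarase that uses the product, rose 1.56-fold, from 60.7 ± 1.54 to 94.5 ± 4.94 RPKM, whereas FUM2, the cytosolic fumarase, fell to 43.9% of wild type (limma adjusted p = 3.34e-05). Transcripts of the listed genes of the route from gamma-aminobutyrate were lower. The transaminase gene POP2 (uncertain, with a multiply mapped share of 0.104) fell to 58.7% of wild type. SSADH, succinic semialdehyde dehydrogenase, fell to 85.2% of wild type. SFC1, a carrier that exchanges succinate and fumarate, rose 1.58-fold.

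**Figure D4:**
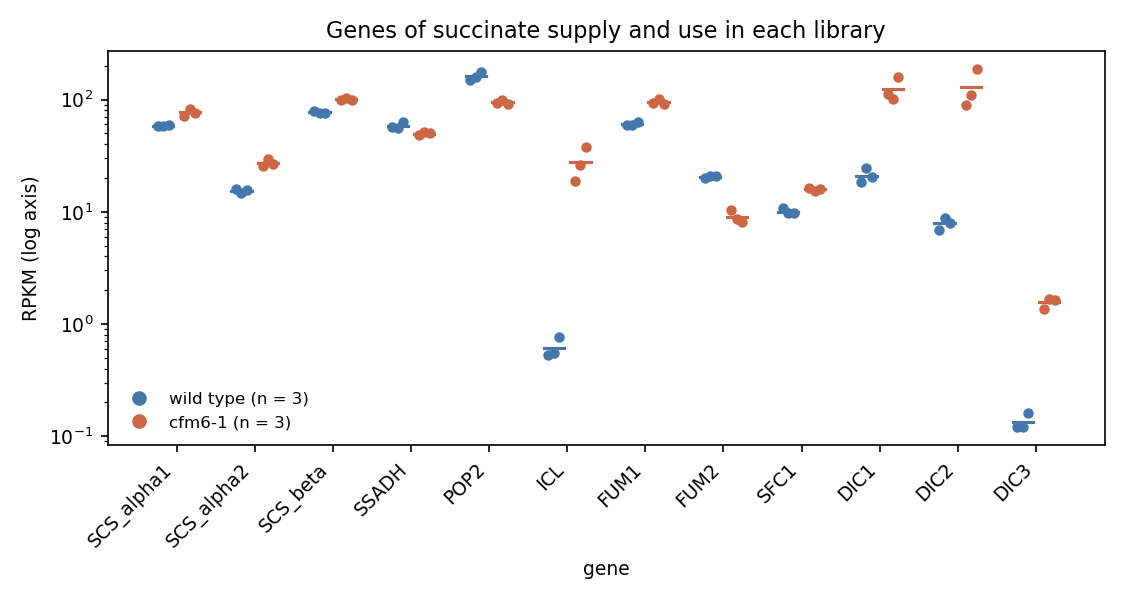
RPKM of the 12 genes of succinate supply and use on a log axis, with 1 point per library and a bar at the genotype mean (n = 3). ICL, DIC1, DIC2 and DIC3 show the widest separation, and SSADH, POP2 and FUM2 are the 3 genes that lie lower in cfm6-1.

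Most genes of ubiquinone synthesis and of iron-sulfur cluster assembly were higher, beside 38.6% higher and 30.2% lower among all tested loci. All 7 ubiquinone synthesis genes rose, with a median log2 change of 0.32 (COQ4, uncertain with a multiply mapped share of 0.146, was not called under quantile scaling, limma adjusted p = 0.101), led by the methyltransferase gene COQ5 (1.79-fold, limma adjusted p = 8.64e-06) and COQ9 (1.72-fold). Of the 14 genes of mitochondrial iron-sulfur cluster assembly, 10 rose, 1 fell, 1 did not pass the test and 2, ISU2 and ISU3, were listed at 0 in every library. Under quantile scaling ISU1 lost its call (limma adjusted p = 0.0672). ADXR was called lower under quantile scaling (limma adjusted p = 0.0214) and under median-of-ratios scaling (0.0412). ISD11 and NFS1, which together release sulfur from cysteine, rose 1.63-fold and 1.41-fold. NFU5, a late-acting transfer protein, was the gene that fell (87.2% of wild type, multiply mapped share up to 0.492), and that call was lost without wild type replicate 1 or cfm6-1 replicate 2 (limma adjusted p = 0.0612 and 0.0627).

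The subunit genes of complex III and of the ATP synthase, other parts of the respiratory chain that sit downstream of complex II, were higher throughout. All 15 complex III genes rose, with a median log2 change of 0.47, and all 13 ATP synthase genes rose, with a median of 0.49. Among all tested loci, 38.6% were higher and 30.2% lower. Quantile scaling left 12 and 12 of them called, and the complex III gene AT2G01090 lost its call without wild type replicate 1 (limma adjusted p = 0.051) or replicate 3 (0.0696). The ATP synthase gene AT5G47030 was not called under median-of-ratios scaling either (limma adjusted p = 0.0521). No difference between these lists and the complex II genes was tested. RISP1 (AT5G13430), a Rieske iron-sulfur protein of complex III that takes electrons from ubiquinol, rose 1.58-fold (uncertain, with a multiply mapped share of 0.122), and the epsilon subunit gene AT1G51650 of the ATP synthase 1.73-fold. These genes were called against the same control libraries as the complex II genes.

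**Figure D5:**
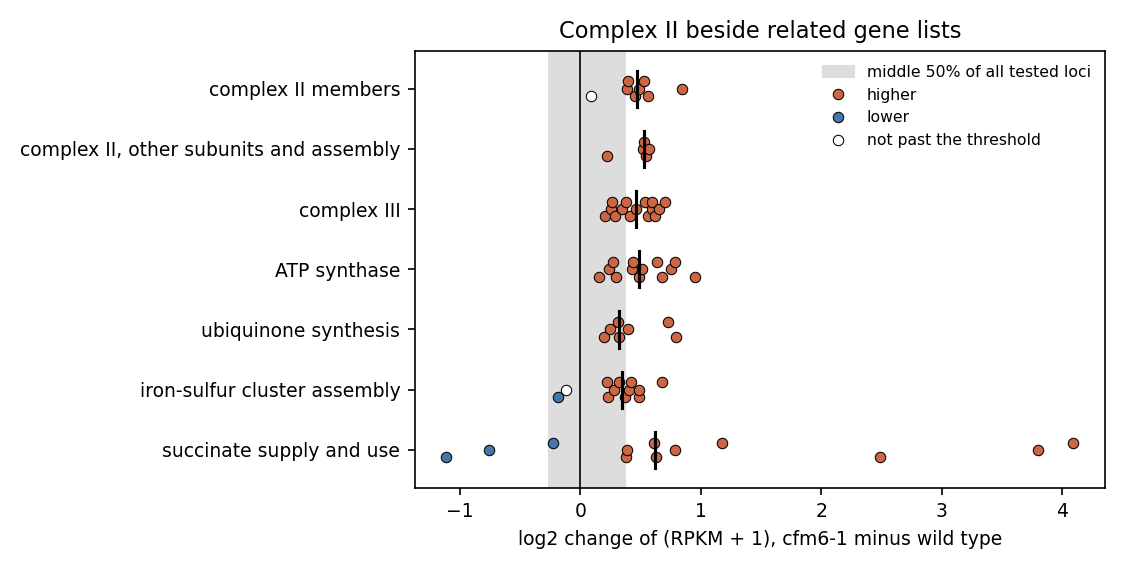
Log2 change of (RPKM + 1), cfm6-1 minus wild type, of each tested gene in 7 lists; orange points rose, blue points fell, white points did not pass the test, black bars are list medians, and the grey band holds the middle 50% of all tested loci (-0.26 to 0.37). The complex II median of 0.47 lies beside those of complex III (0.47) and the ATP synthase (0.49).

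Among all tested loci, 1094 of 20046 had a Pearson r above 0.99 with SDH1-1 over the 6 libraries on the log2(RPKM + 1) scale, a likeness that mostly restates the difference between the genotypes. The 5 highest were AT1G08410, annotated as a P-loop nucleoside triphosphate hydrolase, the pentatricopeptide repeat genes AT1G11710 and AT1G33350, AT5G39850, annotated as ribosomal protein S4, and SPT (AT4G36930), a bHLH factor, with r from 0.99946 to 0.99981. Their folds ran from 1.71 for AT1G11710 to 3.18 for AT5G39850.

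Markers of tissues in the seedling moved as well, beside 38.6% higher and 30.2% lower among all tested loci. All 4 green leaf markers fell, their sum going from between 17950 and 20780 RPKM in wild type to between 12160 and 12940 in cfm6-1. LHCB2.1 is uncertain, with a multiply mapped share of 0.223. The fall of LHCB1.3 was lost without cfm6-1 replicate 2 (limma adjusted p = 0.0571), without the filter (0.381) and under quantile scaling, and that of RBCS1A without the filter (0.106). Of 9 root markers, 2 rose, 5 fell and 2 did not pass the test, and their sum, carried by PYK10, was 1708 to 1930 RPKM in wild type and 2294 to 2729 in cfm6-1. ESB1, among those that fell, is uncertain, with a multiply mapped share of 0.99. The rise of MYB36 was lost without wild type replicate 2 (limma adjusted p = 0.0505) or replicate 3 (0.0553), and EXP7 was called lower without cfm6-1 replicate 2 (0.0488). Of 5 flower markers, 4 were below 1 RPKM in every library. The part of these tissue markers in the levels of the complex II genes was not tested.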

How the data were processed

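RNA-seq of 3 wild type and 3 cfm6-1 libraries (100-base single-end reads, per the labels' protocols) was analysed. RPKM values with 2 decimals were deposited; the unit was read from the values, and TAIR10 is the genome build per the submitters' processing notes. For the aligner, the counter and the use of strand, nothing is stated in the labels. The deposited fraction of multiply mapped reads per locus runs from 0 to 1, and values above 0.1 are treated as uncertain. The authors' deposited table of their own comparison gives gene model length, p-values, adjusted p-values and log2 fold changes; its 6 columns of per-library values have coded names that match no label and were not used. The direction of that table is the direction of those codes.

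The 20047 loci that reached 1 RPKM in 3 or more libraries were fitted by limma-trend (limma 3.58.1, R 4.3.3) with genotype as factor, using log2(RPKM + 1); p-values were adjusted over all of them by the Benjamini-Hochberg method. Folds are ratios of mean RPKM. A pseudocount of 1 understates changes of low genes. Shares were compared by two-sided exact permutation. The fit was tested on simulated data. Reads were rebuilt from RPKM, length and the depth (47.28 to 52.74 M) at which values of genes under 0.3 kb became whole; 100% of them lay within 0.1 of a whole read, and precision from read counts covers counting error only. The members and the gene lists were chosen with earlier results of these data known. Named genes are all members, CFM6, up to 4 loci per list in order of adjusted p, and the 5 loci most like SDH1-1; others were added to describe a pathway in full, after their values were seen. Positions, sequences and motifs come from TAIR10.1 (RefSeq), and Biopython 1.88 aligned coding sequences; the expression files hold no coordinates, so none were moved between builds.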

Additional observations from a re-analysis of the deposited data

How the results depend on the processing

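The 8 tested complex II genes kept their direction and their side of the threshold in all 13 alternative fits each: another pseudocount, no filter, a filter at 10 RPKM, replicate blocks, median-of-ratios and quantile scaling, limma-voom on rebuilt reads and each library left out. The lowest log2 changes were 0.73 for SDH1-1 and 0.01 for SDH2-2, and the highest limma adjusted p among the 7 genes that rose was 0.0236, for SDH6. Without the filter, SDH2-3 was called as well, making 8 members higher. Over the whole table, the filter at 10 RPKM left 4812 genes higher and 3696 lower, fewer because only 11532 loci were tested; quantile scaling gave 6562 and 7248 in place of 7736 and 6063. Equal replicate numbers did not pair the libraries (correlations of deviations 0.03, -0.14 and 0 for numbers 1 to 3). With the replicate block, 7 members were still higher and 0 lower, 7423 and 5832 genes were called, and the paired permutation p of each copy share was 0.25, the smallest that 3 pairs allow. Left-out libraries moved the SDH2-2 share difference between -7.32 and -5.72 percentage points and the SDH1-2 difference between -0.918 and -0.735; the SDH3-2 difference ran from -3.72 to -0.716, the smallest without cfm6-1 replicate 1. Transcript lengths from TAIR10.1, chosen after seeing the data, gave share differences of -0.853 (SDH1-2), -5.73 (SDH2-2) and -2.46 (SDH3-2). Depth limits SDH2-3, at 1 to 6 reads per library.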
